A study of Homo sapiens with 15 samples.

Results

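The genes described here encode the TGF-beta ligands (TGFB1, TGFB2 and TGFB3), their receptors (TGFBR1, TGFBR2 and TGFBR3), the latent TGF-beta binding proteins LTBP1 and LTBP2, and TGFBI, a matrix protein named for its induction by TGF-beta. They were chosen by gene symbol, 9 of the 25681 symbols in the count tables, and all 9 had counts. RNA was sequenced from HSSYII cells, a human synovial sarcoma line that carries the SS18-SSX1 fusion. In one experiment the cells received 0.0001% DMSO or 100 nM dBRD9A for 6 hr, a compound that directs the BRD9 subunit of BAF chromatin remodelling complexes to degradation. In the other they were infected with lentivirus (MOI 1.0) that carried a GFP tag and an shRNA, and were collected at 96 hr. The shRNA was shRenilla, the control, or 1 of 2 hairpins against the fusion, shSS18-SSX1-1 and shSS18-SSX1-2. Each of the 5 groups had 3 libraries. All libraries came from the same line. Infected cells were not selected with a drug, so the shRNA groups may hold uninfected cells.

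TGF-beta is secreted in a latent complex with its own propeptide. LTBP1 ties that complex to the extracellular matrix, from which integrins, proteases and thrombospondin can release the active ligand. Active TGF-beta is bound by TGFBR2, which recruits and phosphorylates TGFBR1, and TGFBR1 in turn phosphorylates SMAD2 and SMAD3, which enter the nucleus with SMAD4. TGFBR3, or betaglycan, is a co-receptor that presents ligand, TGFB2 above all. In mesenchymal cells the pathway is known for its control of matrix and smooth muscle genes.

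The promoters of LTBP1, TGFB2 and TGFB3, the binding protein and the ligands that rose together on fusion knockdown, are shown beside that of TGFB1, the ligand that did not pass the test there. Each sequence is the 250 bases upstream of the gene start from RefSeq (GRCh38.p14), read 5′ to 3′ on the gene's strand. They lie at chr2:32946703-32946952 (plus strand), chr1:218345086-218345335 (plus strand), chr14:75983012-75983261 (minus strand) and chr19:41353923-41354172 (minus strand). Capitals mark CAGAC, the SMAD binding element, or its reverse complement GTCTG.
LTBP1: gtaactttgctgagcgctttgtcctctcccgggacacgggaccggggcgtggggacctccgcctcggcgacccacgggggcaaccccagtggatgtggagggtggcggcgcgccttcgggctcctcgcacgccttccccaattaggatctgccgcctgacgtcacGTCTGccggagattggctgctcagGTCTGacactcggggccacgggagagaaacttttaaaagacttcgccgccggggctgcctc
TGFB2: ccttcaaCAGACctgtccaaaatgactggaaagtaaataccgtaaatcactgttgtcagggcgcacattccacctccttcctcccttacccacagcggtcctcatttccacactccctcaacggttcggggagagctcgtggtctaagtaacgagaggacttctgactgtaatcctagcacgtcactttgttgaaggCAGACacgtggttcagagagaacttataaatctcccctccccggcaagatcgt
TGFB3: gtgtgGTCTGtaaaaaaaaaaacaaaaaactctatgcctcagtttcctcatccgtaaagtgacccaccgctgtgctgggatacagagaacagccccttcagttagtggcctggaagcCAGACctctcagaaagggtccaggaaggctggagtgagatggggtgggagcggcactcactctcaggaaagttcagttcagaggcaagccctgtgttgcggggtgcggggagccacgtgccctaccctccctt
TGFB1: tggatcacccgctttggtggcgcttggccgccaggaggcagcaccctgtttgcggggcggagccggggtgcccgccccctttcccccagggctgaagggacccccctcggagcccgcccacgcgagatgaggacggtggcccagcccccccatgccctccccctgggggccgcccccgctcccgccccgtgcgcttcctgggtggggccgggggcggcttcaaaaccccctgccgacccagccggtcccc
CAGAC occurred on either strand in 37.8% of 27305 promoters of this length, so a match is common. It was found in 4 of the 9 members, at -85 and -61 in LTBP1, at -243 and -53 in TGFB2, at -245 and -133 in TGFB3 and at -213 in TGFBR1, with positions counted from the gene start. TGFBR2, LTBP2 and TGFBI, which were also called higher on knockdown, held no match, and neither did TGFB1 and TGFBR3, which were not called. In TGFB2 the last base of the match at -53 is also the first base of an E-box, CACGTG, at -49. A second E-box lies at -20 in TGFB3, and 6.49% of all promoters hold one. TGFB2 also has a TATAAA box at -29 (11.1% of all promoters) and GGAATG, the TEAD motif, at -185 (11.9%). The TGFB1 promoter held 6 matches to GGGCGG, the SP1 motif, which occurs in 42.3% of all promoters and in 4 of the members. The AP-1 motif TGANTCA was in none of the 9 and in 6.6% of all promoters. All motifs were searched on both strands. These matches describe letters in this window only, and the binding of any factor was not measured here.

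Total counts per library ranged from 18580419 to 27031647 (median 22382782). BRD9 mRNA was 89 ± 3.1 CPM (counts scaled by library size) with DMSO and 93.3 ± 3.32 CPM with dBRD9A (SD, n = 3 each). The compound acts on the protein, so this level does not check its label. SSX1 was 63.6 ± 11.3 CPM with shRenilla, against 20 ± 1.2 CPM for shSS18-SSX1-1 and 28.5 ± 0.754 CPM for shSS18-SSX1-2, and fell by 1.42 log2 units over both hairpins (standard error, SE, 0.0978, edgeR adjusted p = 5.73e-08). Of 10 synovial sarcoma markers, 9 exceeded a mean of 1 CPM in every group. CD99 had 0 counts in every group, and whether its reads can be counted here was not tested. Among replicate pairs, shRenilla replicate 1 differed most from its partners, with a chi-square per degree of freedom of 34.6 and 25.6 against at most 9.32 in all other pairs. The labels do not say whether libraries came from separate cultures, so p-values reflect library-to-library spread alone, and that spread may be technical. The tables hold no spike-in rows and the libraries were scaled to each other by TMM, so every change is relative to the bulk of the genes.

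Knockdown of the fusion was accompanied by higher mRNA of most members. With both hairpins set against shRenilla, 7 of the 9 members rose (edgeR's quasi-likelihood test, Benjamini-Hochberg adjusted p under 0.05), and 6 of them by more than 1.5-fold. Of all 14269 genes tested, 22.5% were called higher, 22.1% lower and 12.5% were higher by more than 1.5-fold. LTBP2 and TGFBI passed the filter on low counts only through the hairpin libraries, where they are high, with 1 and 0 of 3 shRenilla libraries over its limit of 0.451 CPM, so both had to differ. Of the other 7 members 5 rose, 4 of them by more than 1.5-fold, and their median log2 change was 1.32. The median of all genes was -0.01. None of the 9 was called lower, also with DESeq2 and with limma voom, and 1 of them, TGFB1, was lower at an unadjusted p under 0.05. Each hairpin alone gave 7 members higher, against 22% of all genes for shSS18-SSX1-1 and 18.3% for shSS18-SSX1-2. Both hairpins share the shRenilla libraries, so they are not independent of each other.

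LTBP1, on chromosome 2 of GRCh37 (33172020 to 33624576, plus strand), had the largest change of the members with more than 1 shRenilla count. Its level was 1.01, 0.633 and 0.973 CPM in shRenilla replicates 1, 2 and 3. With shSS18-SSX1-1 it was 88.1, 84 and 91.5 CPM, and with shSS18-SSX1-2 it was 77, 99.1 and 76.4 CPM. Every hairpin library lay far above every shRenilla library. In counts, the shRenilla libraries held 27, 14 and 20, and the lowest hairpin library held 1500. The log2 fold change over both hairpins was 6.60 (SE 0.162, edgeR adjusted p = 2.93e-12), or 96.9-fold, and 0.477% of genes tested changed by more. The files hold 5 transcript rows for LTBP1. In another of these rows the shRenilla counts were 27, 13 and 19 and the hairpin counts 1353 to 2342, and in all 5 the hairpin libraries were above the shRenilla libraries.

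LTBP2 is a fibrillin-binding relative of LTBP1 that is not known to carry latent TGF-beta. It lies on chromosome 14 of GRCh37 (74964886 to 75079081, minus strand). It was low throughout, at 0.375, 0.678 and 0.34 CPM with shRenilla, 3.39, 4.83 and 4.18 CPM in the shSS18-SSX1-1 libraries and 6.44, 6.27 and 5.86 CPM in those of shSS18-SSX1-2. The 3 groups did not overlap. LTBP2 rose by 3.43 in log2 units (SE 0.217, edgeR adjusted p = 2.53e-08), or 10.8-fold, from 32 counts in the shRenilla libraries together, and owes its place among the genes tested to the hairpin libraries.

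Among the ligands, TGFB2 and TGFB3 rose and TGFB1 did not pass the test. TGFB2 lies on chromosome 1 of GRCh37 (218518678 to 218617961, plus strand). It stood at 29.6, 31.7 and 28.8 CPM with shRenilla, at 78.6, 65.8 and 84.3 CPM with shSS18-SSX1-1 and at 73.6, 81.4 and 67.5 CPM for shSS18-SSX1-2. No hairpin library overlapped a shRenilla library, and the hairpins overlapped each other. The log2 change was 1.32 (SE 0.0939, edgeR adjusted p = 7.83e-08), or 2.5-fold. Exons of TGFB2 are overlapped by TGFB2-AS1 on the opposite strand and TGFB2-OT1 on the same strand. Whether strand was used in counting is not given in the sources used here, and reads of these genes cannot be told apart. TGFB2-OT1 had 122 to 227 counts in the shRenilla libraries and 309 to 582 in the hairpin libraries, where TGFB2 had 593 to 789 and 1227 to 2078.

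TGFB3, on chromosome 14 of GRCh37 (76424440 to 76449354, minus strand, overlapped by TGFB3-AS1), was 16.8, 18.3 and 17.1 CPM with shRenilla. The shSS18-SSX1-1 libraries had 52.5, 46.8 and 53.5 CPM and the shSS18-SSX1-2 libraries 43.7, 55.3 and 47.9 CPM. All 6 hairpin libraries were above all shRenilla libraries. TGFB3 rose by 1.52 in log2 units (SE 0.0923, edgeR adjusted p = 1.69e-08), or 2.86-fold.

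TGFB1, on chromosome 19 of GRCh37 (41807492 to 41859827, minus strand), was 56.8, 42.4 and 57.2 CPM with shRenilla, 42.8, 47.1 and 38.6 CPM in the shSS18-SSX1-1 libraries and 48, 43.7 and 49.5 CPM in those of shSS18-SSX1-2. Here shRenilla replicate 2 fell within the range of the hairpin libraries. The log2 change was -0.22 (95% interval -0.42 to -0.02, edgeR adjusted p = 0.0906). The value depends on single shRenilla libraries, at -0.34 without replicate 2 (adjusted p = 0.00519), -0.13 without replicate 1 (0.353) and -0.14 without replicate 3 (0.355). In a fit of all 15 libraries the adjusted p was 0.0477, and with DESeq2 it was 0.0968.

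The receptors differed in size of change. TGFBR2, the type II receptor, lies on chromosome 3 of GRCh37 (30648093 to 30735634, plus strand). Its level was 2.14, 3.34 and 2.63 CPM with shRenilla, against 12.8, 13.6 and 16.8 CPM with shSS18-SSX1-1 and 12.7, 14.7 and 15.2 CPM for shSS18-SSX1-2. The hairpin libraries lay wholly above the controls and overlapped each other. TGFBR2 rose by 2.41 in log2 units (SE 0.151, edgeR adjusted p = 2.26e-08), or 5.31-fold.

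TGFBR1, the type I receptor kinase, lies on chromosome 9 of GRCh37 (101866320 to 101916474, plus strand). It was 43.3, 47.3 and 44.6 CPM with shRenilla, 70.7, 62 and 69.6 CPM in the shSS18-SSX1-1 libraries and 64.4, 62.4 and 55.7 CPM in those of shSS18-SSX1-2. The groups did not overlap with shRenilla, and the change was the smallest of the 7 called, 0.50 in log2 units (SE 0.075, edgeR adjusted p = 8.81e-05), or 1.42-fold. TGFBR3, on chromosome 1 of GRCh37 (92145900 to 92371892, minus strand), was 40.3, 48.2 and 47.1 CPM with shRenilla, 52.6, 46.3 and 50.3 CPM in the shSS18-SSX1-1 libraries and 57.3, 45.4 and 53 CPM in those of shSS18-SSX1-2. Its groups overlapped and the log2 change was 0.17 (95% interval -0.01 to 0.34, edgeR adjusted p = 0.141). Without shSS18-SSX1-2 replicate 2 the adjusted p was 0.0462.

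TGFBI, on chromosome 5 of GRCh37 (135364677 to 135399507, plus strand), was close to undetected. The shRenilla libraries held 1, 0 and 0 counts, the shSS18-SSX1-1 libraries 8, 11 and 19 and the shSS18-SSX1-2 libraries 18, 55 and 26. Every hairpin library had more counts than any shRenilla library. The ratio of depth-scaled counts over both hairpins was 71.7 (95% interval 12.7 to 2850, exact and for counting error only, 137 counts against 1). The edgeR adjusted p was 6.26e-05, but the gene was tested only because the hairpin libraries passed the filter, so it had to differ and this p supports nothing. At 0.362 to 2.15 CPM in the hairpin libraries the gene remained low, and the size of its change is known only within that interval.

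After 6 hr of dBRD9A the share of members called was close to that of all genes, and each called change was below 1.5-fold. Of 8 members tested, 1 rose and 2 fell, 3 in all, where 35.9% of 13652 genes were called in either direction (17.7% higher and 18.2% lower). No member passed 1.5-fold in edgeR at an adjusted p under 0.05, a fold that 2.83% of genes passed. At an unadjusted p under 0.05, LTBP2 was the member above 1.5-fold, but it passed the filter on low counts through the dBRD9A libraries, where it was higher. The members' median log2 change was -0.02 and that of all genes 0.01.

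TGFBR1 rose, from 69.1, 64.9 and 70.3 CPM with DMSO to 79.1, 82.7 and 82.5 CPM with dBRD9A. The groups did not overlap, and the log2 change was 0.27 (SE 0.0411, edgeR adjusted p = 4.66e-06), or 1.21-fold. TGFB1 fell from 83, 88.9 and 91.6 CPM to 76.8, 75.8 and 76 CPM. Again no library overlapped, and the log2 change was -0.19 (SE 0.0409, edgeR adjusted p = 0.000402). TGFB2 fell from 22.7, 21.2 and 22.9 CPM to 19, 17.4 and 18.4 CPM, a log2 change of -0.27 (SE 0.063, edgeR adjusted p = 0.00095), also without overlap. The calls of TGFB1 and TGFB2 were lost in a fit of all 15 libraries, in which both experiments share 1 estimate of the spread (adjusted p = 0.212 and 0.068 from edgeR).

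TGFB3 was 33.3, 30.9 and 34.1 CPM with DMSO and 27.2, 29.9 and 31.9 CPM with dBRD9A, with overlapping groups and a log2 change of -0.13 (edgeR adjusted p = 0.074). It passed without DMSO replicate 2 (adjusted p = 0.0128) and without dBRD9A replicate 3 (0.0227), and without dBRD9A replicate 1 it was -0.08 (0.394). LTBP2 rested on 8 to 11 counts with DMSO and 25, 19 and 10 with dBRD9A, and these overlapped. Over the filter's limit of 0.437 CPM were 1 of 3 DMSO libraries and 3 of 3 dBRD9A libraries. LTBP2 was thus tested through the group where it was higher, so its p-values here support nothing. The log2 change was 0.83 (95% interval 0.15 to 1.52, edgeR adjusted p = 0.0606), and it was 1.09 without dBRD9A replicate 3 (adjusted p = 0.015) and 0.52 without replicate 1 (0.355). With the replicate number as a block the adjusted p was 0.0457, with limma voom 0.0871 and with DESeq2 0.209.

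The remaining members did not pass, and the intervals of their changes include 0. LTBP1 was 2.89 to 3.62 CPM with DMSO and 3.25 to 3.75 CPM with dBRD9A, a log2 change of 0.10 (95% interval -0.18 to 0.37). TGFBR2 was 1.11 to 1.6 CPM and 1.26 to 1.4 CPM (log2 fold change -0.03, interval -0.44 to 0.39), and TGFBR3 was 5.96 to 7 CPM and 5.78 to 6.72 CPM (-0.02, interval -0.22 to 0.19). All 3 pairs of groups overlapped. TGFBI, with 5 to 11 counts per DMSO library and 7 to 11 per dBRD9A library, was below the filter on low counts and was not tested.

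The knockdown and dBRD9A effects were then compared directly, as the difference between their log2 fold changes in a fit of all 15 libraries. The times differ, 96 hr against 6 hr, so time and perturbation cannot be told apart in this difference. For 7 of 9 members the dBRD9A effect was the lower, where 19% of 14560 genes were called so and 36.6% in either direction. Without LTBP2 and TGFBI, which passed the filter of the knockdown fit only through the hairpin libraries, it was 5 of 7. The difference was -6.53 for LTBP1 (edgeR adjusted p = 9.79e-13), -2.62 for LTBP2, -2.46 for TGFBR2, -1.67 for TGFB3 and -1.62 for TGFB2. TGFBI also passed (adjusted p = 0.000618), with a size that depends on its single shRenilla count. TGFBR1, which rose in both experiments, differed by -0.26 (edgeR adjusted p = 0.033). That last call was lost without DMSO replicate 1 or 3, without any 1 of the dBRD9A libraries, without shRenilla replicate 3 and without replicate 1 of either hairpin, with adjusted p between 0.0545 and 0.0889. TGFB1 (0.01, 95% interval -0.24 to 0.26) and TGFBR3 (-0.20, interval -0.49 to 0.08) did not pass.

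**Figure D1:**
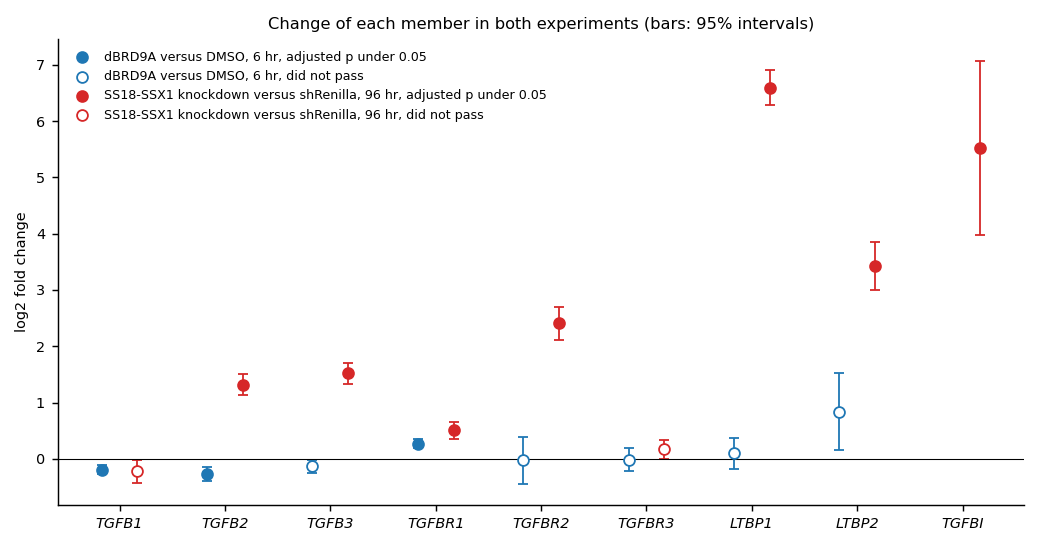
Log2 fold change (y axis) of each gene (x axis) for dBRD9A against DMSO at 6 hr (blue) and for both hairpins against shRenilla at 96 hr (red), from separate edgeR fits with bars for 95% intervals. Filled points passed an adjusted p of 0.05, and the red point of LTBP1 at 6.60 stands beside a dBRD9A value of 0.10. TGFBI has no dBRD9A value, and its fitted change rests on 1 shRenilla count.

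No member passed the test between the hairpins. Set against each other, shSS18-SSX1-2 and shSS18-SSX1-1 differed in none of the 9 members at an adjusted p under 0.05 in edgeR, DESeq2 or limma voom, where edgeR called 0.147% of all genes. At an unadjusted p under 0.05 in edgeR there were 2 members, LTBP2 and TGFBI, both higher with shSS18-SSX1-2. The log2 difference was 0.57 for LTBP2 (95% interval 0.26 to 0.89, adjusted p = 0.22) and 1.30 for TGFBI (0.55 to 2.05, adjusted p = 0.246). For LTBP1 the difference was -0.08 (interval -0.29 to 0.13), for TGFB2 -0.06 (-0.25 to 0.14) and for TGFB3 -0.07 (-0.26 to 0.12). SSX1 itself averaged 20 CPM in the libraries of the first hairpin and 28.5 CPM in those of the second, a log2 difference of 0.49 that did not pass (edgeR adjusted p = 0.138).

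The control groups of the experiments differed from each other in most members. Between shRenilla and DMSO, 8 members were called, 3 higher and 5 lower with shRenilla, where 54.5% of all genes were called (27.9% higher and 26.6% lower). TGFBR3 differed most among members with ample counts, at 6.35, 5.96 and 7 CPM with DMSO and 40.3, 48.2 and 47.1 CPM with shRenilla, a log2 change of 2.81 (SE 0.107, edgeR adjusted p = 1.47e-13). TGFBR2 (0.95) and TGFB2 (0.44) were also higher with shRenilla. LTBP1 (-1.87), TGFB3 (-0.91), TGFB1 (-0.75) and TGFBR1 (-0.59) were lower, as was TGFBI, with 7, 5 and 11 counts in DMSO libraries against 1, 0 and 0. LTBP2 did not pass (0.13, edgeR adjusted p = 0.806). Infection, hairpin expression, the longer culture and the separate experiment cannot be told apart in this comparison.

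The levels were also ordered across the 5 groups. LTBP1 and TGFBI had their lowest mean with shRenilla and their highest with the hairpins, a span of 101-fold between group means for LTBP1. For TGFBI, shSS18-SSX1-1 overlapped dBRD9A, and dBRD9A overlapped DMSO. TGFB1 ran the other way, highest with DMSO (87.8 ± 4.42 CPM) and lowest with shSS18-SSX1-1 (42.8 ± 4.23 CPM), a 2.05-fold span in which shRenilla and both hairpins overlapped. TGFBR1 was highest with dBRD9A (81.4 ± 2.06 CPM) and lowest with shRenilla (45.1 ± 2.02 CPM), and DMSO overlapped shSS18-SSX1-1. For TGFB3, DMSO (32.8 ± 1.68 CPM) lay between the hairpins and shRenilla (17.4 ± 0.814 CPM), and DMSO overlapped dBRD9A. TGFB2 and TGFBR2 had the same order of means, from shSS18-SSX1-1 over shSS18-SSX1-2, shRenilla and DMSO to dBRD9A.

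The makeup of the ligand mRNA differed between groups. Levels of different genes were compared per kilobase of the annotated main transcript (CPM per kb). TGFB1 made up 70.3% ± 1.5 of the summed ligand mRNA with DMSO, 70% ± 1.25 with dBRD9A and 64.5% ± 5.02 with shRenilla (SD, n = 3 each). With shSS18-SSX1-1 its share was 35.7% ± 4.45 and with shSS18-SSX1-2 38.7% ± 3.76. Every hairpin library (31.7% to 41.2%) was below every other library (58.7% to 71.7%). The TGFB2 share was 17.8% ± 2.58 with shRenilla and 30% ± 3.02 and 28.8% ± 1.95 with the hairpins, and the TGFB3 share was 17.7% ± 2.46, 34.3% ± 1.54 and 32.5% ± 2.71 in the same order. With shSS18-SSX1-1 the 3 ligand genes stood at 15.4, 13 and 14.8 CPM per kb for TGFB1, TGFB2 and TGFB3, and with shRenilla at 18.7, 5.11 and 5.07 CPM per kb.

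The split among receptor mRNAs differed between the experiments and also within the shRNA experiment. TGFBR1 made up 88.8% ± 0.265 of the receptor total per kb with DMSO and 90.7% ± 0.551 with dBRD9A, and 47.4% ± 1.74 with shRenilla. The TGFBR3 share was 8.59% ± 0.416 with DMSO and 48.6% ± 1.4 with shRenilla, and 36.7% ± 1.11 and 39.5% ± 3.21 with the hairpins, whose libraries (35.5% to 41.5%) were all below those of shRenilla (47.1% to 49.9%). The TGFBR2 share was 2.6% ± 0.562 with DMSO, 4.04% ± 0.622 with shRenilla, 14.8% ± 1.91 with shSS18-SSX1-1 and 15.2% ± 2 with shSS18-SSX1-2. The hairpin libraries, at 12.8% to 16.6%, were all above the shRenilla libraries at 3.5% to 4.72%. LTBP1 itself went from 0.134 CPM per kb with shRenilla to 13.5 and 12.9 CPM per kb with the hairpins, beside 12.6 to 16.9 CPM per kb for the ligand genes there. In bulk RNA, fewer cells of a kind and less RNA per cell cannot be told apart.

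**Figure D2:**
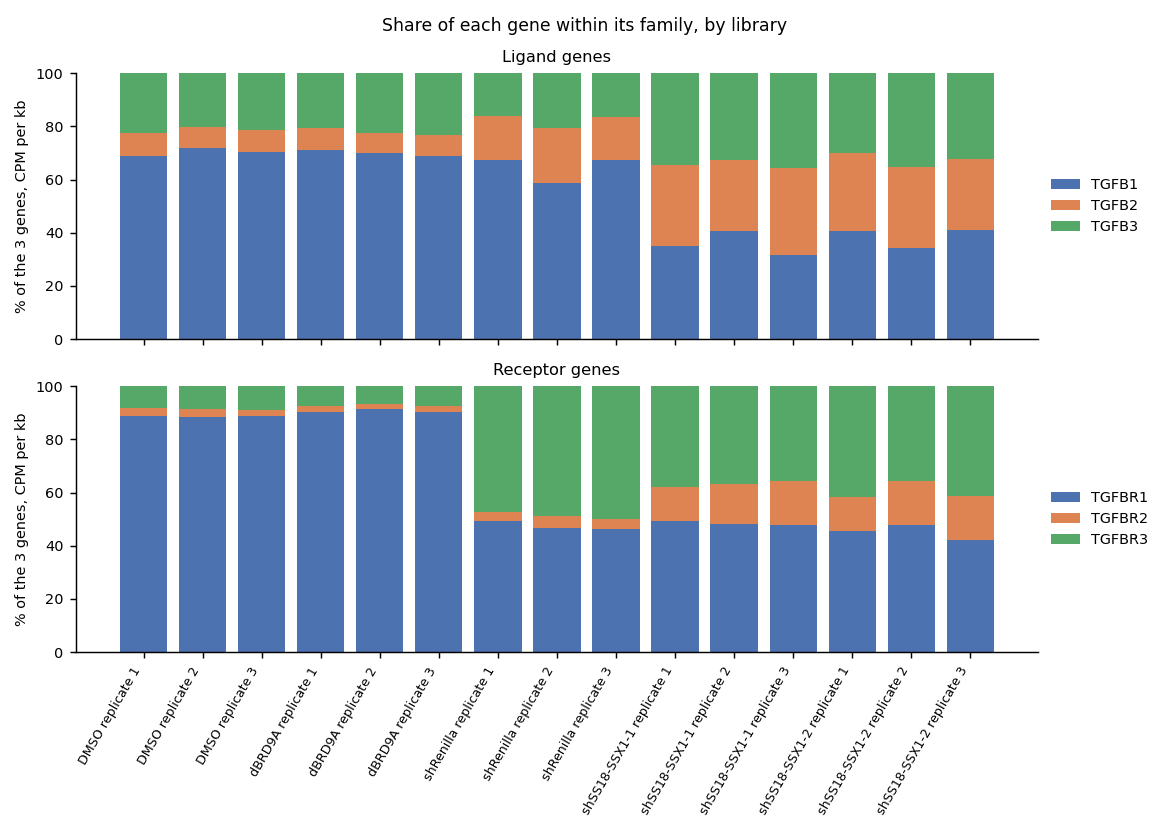
Share (y axis, percent of summed CPM per kb) of each ligand gene (top) and each receptor gene (bottom) in each of the 15 libraries (x axis). The TGFB1 share is 58.7% to 71.7% in the 9 libraries without a fusion hairpin and 31.7% to 41.2% in the 6 hairpin libraries, and the TGFBR2 share is 12.8% to 16.6% in those 6.

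The other genes of the pathway were described by lists. Of 17 tested genes of latency, matrix storage and activation, 16 rose on knockdown, against 22.5% of all genes. By more than 1.5-fold 13 of them rose, against 12.5%, and the median log2 fold change was 0.71. THBS1, ASPN, ITGB3 and LRRC32 averaged 0.256, 0.0313, 0.0276 and 0.113 CPM with shRenilla, under the filter's limit of 0.451 CPM. They passed the filter only through the hairpin libraries, so they had to differ and add no support to these counts. THBS1, a thrombospondin that can activate latent TGF-beta, went from 0.256 ± 0.158 CPM with shRenilla to 83.1 ± 4.58 and 96.2 ± 3.32 CPM with the hairpins. Its log2 change was 8.47 (SE 0.168), from 4, 4 and 9 counts in the shRenilla libraries. The edgeR adjusted p was 3.02e-13, but THBS1 was tested only through the hairpin libraries, so this p supports nothing. FBN1, the fibrillin to which LTBPs bind, went from 64.1 ± 8.13 to 332 ± 17.3 and 334 ± 33.2 CPM and rose by 2.38. BGN, a matrix proteoglycan, rose by 2.77, and ITGAV, the subunit of integrins that release TGF-beta, rose by 0.76. With dBRD9A, 2 of 13 rose and 4 fell (median -0.10), against 17.7% and 18.2% of all genes. FBN1 fell by 0.16, ITGAV fell by 0.13 and FBN2 fell by 0.19, while MMP2, a matrix protease, rose by 0.23.

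Of 10 other receptors and co-receptors, 1 rose and 1 fell on knockdown (22.5% and 22.1% of all genes), with a median of 0.04. ENG, the co-receptor endoglin, rose by 1.44 from 6.24 ± 0.797 CPM, and ACVR2B, an activin receptor, fell by 0.25. The dBRD9A comparison gave 1 higher and 4 lower of 10, against the same 17.7% and 18.2%. BAMBI, a pseudoreceptor that restrains the pathway, rose by 0.46 and ENG fell by 0.38. Of 17 SMAD proteins and their regulators, 10 rose and 1 fell on knockdown (again beside 22.5% and 22.1%), 2 of the rises by more than 1.5-fold. SMAD6 rose by 1.05 and SMAD7 by 0.65, both inhibitory SMADs, and SMAD3, which carries the signal, rose by 0.41. With dBRD9A, 5 of the 17 rose and 3 fell, against 17.7% and 18.2% of all genes. SMAD7 rose by 0.54 (SE 0.0505, edgeR adjusted p = 7.4e-10) and SKIL, a SMAD corepressor, by 0.36, while FOXH1, a SMAD partner, fell by 0.34 and USP9X, a deubiquitinase, fell by 0.21.

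Among other known target genes of TGF-beta, 24 of 28 rose on knockdown (22.5% of all genes did), 22 of them by more than 1.5-fold (12.5% of all genes), and the median log2 change was 1.49. The list was made with earlier results of these data known, so its count is not independent evidence of a direction. The list was also not divided by whether TGF-beta raises or lowers a gene, so its counts do not give a direction of the pathway. It has 33 genes, and COL1A2, POSTN, TNC, NOX4 and CDKN2B, which averaged at most 0.36 CPM in any group, were not tested. COL1A1, a fibrillar collagen chain, went from 3.29 ± 0.907 CPM to 385 ± 15.4 and 572 ± 6.62 CPM and rose by 7.13. TAGLN, an actin-binding protein of smooth muscle, rose by 5.16 from 14.5 ± 2.15 CPM. ACTA2, smooth muscle actin, had 0, 1 and 1 counts in the shRenilla libraries and was 49.2 ± 4.94 and 63.1 ± 13 CPM with the hairpins. Its reads cannot be told apart from those of ACTA2-AS1. ACTA2 and TIMP3 averaged 0.0313 and 0.0736 CPM with shRenilla, under the filter's limit of 0.451 CPM. Both passed the filter only through the hairpin libraries, so they had to differ and add no support to the count.

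After dBRD9A, 10 of 26 target genes rose and 3 fell (17.7% and 18.2% of all genes), and 4 rose by more than 1.5-fold, as 2.23% of all genes did (median 0.11). COL1A1 rose by 0.69, from 4.15 ± 0.363 to 6.68 ± 0.425 CPM. ID2 and ID1, inhibitors of differentiation, rose by 0.68 and 0.46, and CTGF, a matricellular protein, rose by 0.65. Of 9 activin-related ligands and binding proteins, 6 rose and 1 fell on knockdown (median 0.73), where 22.5% and 22.1% of all genes did. GDF15 rose by 4.69, FSTL3 by 0.91 and FST, the activin-binding protein follistatin, by 0.73. INHBA, the activin A subunit, was at 0 in every shRenilla library and at least 108-fold higher with the hairpins, against a floor of 3 counts over the shRenilla group. With INHBA at that bound the list's median was also 0.73. INHBA too passed the filter only through the hairpin libraries, so it had to differ. With dBRD9A, 1 of 7 rose and 2 fell (17.7% and 18.2% of all genes), with GDF11 down by a log2 change of -0.30.

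Some markers of other cell types moved with the knockdown as well. The summed level of 8 smooth muscle and pericyte genes, which include ACTA2 and CNN1 of the target list, was 172 to 206 CPM with shRenilla. It was 365 to 411 CPM with the hairpins and 222 to 235 CPM with DMSO. MYH11, a smooth muscle myosin among these genes, did not pass on knockdown (log2 change 0.08, edgeR adjusted p = 0.471). The sum of 8 epithelial genes was 9.9 to 10.5 CPM with shRenilla, 75.4 to 80.3 CPM for shSS18-SSX1-1 and 146 to 170 CPM for shSS18-SSX1-2, carried by KRT8 and KRT18, while EPCAM averaged at most 0.077 CPM in any group. The sum of 10 fibroblast genes was 218 to 280 CPM with shRenilla and 320 to 352 CPM with the hairpins, but also 311 to 336 CPM with DMSO. Among these genes PDGFRA did not pass on knockdown (log2 change -0.12, edgeR adjusted p = 0.256). PDGFRB among them went from 0.2 ± 0.0226 to 68.4 ± 5.7 and 69.3 ± 5.23 CPM, whereas DPT was at 0 and LUM, DCN, COL6A3 and FAP averaged at most 0.144 CPM in the hairpin groups. Endothelial, leukocyte and platelet lists summed to less than 8 CPM in every library. The part of any such cells in the changes of the members was not tested.

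Over the 15 libraries, the genes with a pattern most like a member's were found by Pearson's r of log2(CPM + 1) among 11067 genes that averaged 5 CPM or more. These values describe a likeness of patterns across libraries that share 2 experiments and 5 groups, and carry no test. For LTBP1 they were MYLK, a myosin light chain kinase (r = 0.9969, Spearman's rho 0.882), and PTRF, a caveolar coat protein (0.9936, rho 0.839). For TGFB2 they were FBXO8 (0.9952) and RAB31 (0.9943), for TGFB3 PALLD (0.9813) and C1S (0.972), and for TGFB1 FADS2 (0.9915) and TTLL12 (0.9881). The receptors had LRP12 (0.9639) and GULP1 (0.9547) for TGFBR1, DDIT4 (0.9937) and PIK3IP1 (0.9933) for TGFBR2, and ITGA8 (0.9965) and AMIGO2 (0.9956) for TGFBR3. LTBP2 was most like EPAS1 (0.9857) and ST3GAL5 (0.9854). TGFBI averaged below 1 CPM and was not searched. No member was among the genes most like another member.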

How the data were processed

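RNA-seq libraries of HSSYII cells were compared in 5 groups of 3, named from the labels. The submitters' processing notes name STAR, featureCounts and hg19 for the whole-number read counts that the authors deposited for each transcript. Tool versions and whether strand was used were not given in the sources used here, and the kit is NEBNext Ultra II per the labels and NEBNext Ultra in the methods. For each symbol the row with the highest sum over the 15 libraries was kept. In the deposited table of dBRD9A replicate 2, 4535 rows had a symbol broken before the count, which were rejoined. Of 80 rows with a symbol turned into a date, 78 were restored.

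Counts were tested with edgeR 4.0.16 (R 4.3.3; filterByExpr, minimum count 10; TMM; robust quasi-likelihood), each experiment in its own fit, and the difference of effects and the controls in a fit of all 15 libraries. A call is an adjusted p under 0.05 (Benjamini-Hochberg) at any fold unless 1.5-fold is named. Standard errors were obtained from each log2 change and the square root of its F statistic, and 95% intervals from them by the normal quantile. The scripts were tested on simulated data. CPM use TMM library sizes. Gene positions are from a GENCODE annotation on GRCh37, and promoters from RefSeq (all 9 matched). Lists were counted, not tested. Genes named from a list are up to 4 with the largest called change at a mean of at least 5 CPM. INHBA was named after its value was seen. The result of a gene that this rule selects is not reported here. The members and lists were chosen with earlier results of these data known. Alternatives were DESeq2 1.42.0, limma voom 3.58.1, other scalings and filters, rows summed per symbol, a block by replicate number and fits without each library in turn.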

Additional observations from a re-analysis of the deposited data

Results flagged for a closer look

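For 7 of 9 members the effect of dBRD9A at 6 hr and of fusion knockdown at 96 hr differed from each other. The test was edgeR's quasi-likelihood test of that difference, at an adjusted p under 0.05. Of all 14560 genes tested, 36.6% were called in either direction and 19% with the dBRD9A effect lower. LTBP2 and TGFBI passed the filter of the knockdown fit only through the hairpin libraries, and without them 5 of 7 members were called. On the log2 scale, as the dBRD9A effect minus the knockdown effect, the values were -6.53 for LTBP1, -5.38 for TGFBI, -2.62 for LTBP2, -2.46 for TGFBR2, -1.67 for TGFB3, -1.62 for TGFB2 and -0.26 for TGFBR1. The value of TGFBI is a fitted one that depends on 1 shRenilla count and is no bound. Treatment time and experiment differ between both effects and cannot be told apart from the perturbation. No group had enough libraries for a check of single outlying libraries.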

How the results depend on the processing

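The count of members called between dBRD9A and DMSO was 3. It was 0 with a fold above 1.5 required, 1 in a fit of all 15 libraries, and 3 to 5 when a library was left out (5 without dBRD9A replicate 3). Those 5 include LTBP2, which was tested through the dBRD9A libraries. Left-out libraries gave 7 to 8 members for knockdown, 0 to 0 between the hairpins, 6 to 7 for the difference of effects and 8 to 8 between the controls. Of 965 alternatives for single members, 939 kept the call or its absence, 19 lost the call, 7 gained it and none reversed a call. A change of sign in a member not called either way was counted as kept. For TGFBR2 with dBRD9A, for example, the log2 change of -0.028 ranged from -0.165 to 0.085. Without shRenilla replicate 1, the library that stood apart, LTBP1 rose by 6.77 and TGFBR2 by 2.27 on the log2 scale. Scaling moved the median of all genes by less than 0.1.

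Correlations of same-numbered libraries, with group means removed, were -0.117 to 0 for dBRD9A and -0.619 to 0.47 for knockdown. Differently numbered libraries were not set beside them, so whether replicate numbers pair the libraries was not tested. With a replicate block 4 members were called for dBRD9A, LTBP2 among them, and 7 for knockdown. For the difference 6 were called, and TGFBR1 had -0.26 there (adjusted p = 0.055 from edgeR). The TGFBR1 difference lost its call in 12 of 25 alternatives, total counts and no filter among them. Its adjusted p was 0.0545 to 0.0889 in those, apart from 0.033 where a 1.5-fold change was required, and 0.0167 to 0.0889 over all 25. Over all genes, the 15-library fit called 1500 for dBRD9A against 4906, and DESeq2 called 162 between the hairpins against 21. The cause was not tested. Depth limits TGFBI and LTBP2, with 1 and 32 counts in the shRenilla libraries together.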
